A study of Homo sapiens with 12 samples.

Results

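The 52 genes described here belong to the pathways that repair DNA or signal its damage, and they were listed by pathway: homologous recombination, the Fanconi and crosslink pathway, mismatch repair, base excision repair with direct reversal, nucleotide excision repair, end joining, and checkpoint signalling. Each gene was represented by its brightest probe, the one with the highest mean log2 intensity over all arrays. Of the 52 genes, 43 had a named probe, out of 7452 named genes in all, and a gene with such a probe is called measured here. BRCA2, FANCA, FANCD2, FANCF, FANCM, MLH3, NEIL2, NTHL1 and NHEJ1 were not analysed here.

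The arrays measured RNA of HCT116, an established colorectal cancer line, 24 h after transfection with 5 nM siRNA. All cells received an siRNA: 4 arrays a non-targeting control against luciferase (siLUC), 4 siLRH-1 #1 and 4 siLRH-1 #2, a pair of siRNAs against LRH-1, the nuclear receptor encoded by NR5A2. The 4 samples of a group were biological replicates of 1 cell line. The NR5A2 transcript was not analysed here, so no value below measures the knockdown itself. Levels are deposited log2 intensities, which the paper describes as quantile-normalized, and a difference of 1 is a doubling. The median array level lay between 6.487 and 6.496, so the deposited values did not share exactly 1 distribution. The lowest correlation within a group was 0.996, and the number of arrays limits the precision. Among epithelial markers EPCAM averaged 12.12, KRT19 12.54 and the intestinal factor CDX2 8.10, while KRT20 averaged 5.96, under the median probe at 6.48. The 3 measured fibroblast markers averaged 5.97 to 6.33.

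Cells answer each kind of DNA lesion with its own pathway. Homologous recombination and end joining mend double-strand breaks, the Fanconi proteins unhook crosslinked strands, mismatch repair removes replication errors, and the excision pathways cut out damaged bases or bulky adducts. The kinases ATM and ATR sense breaks and stalled forks and pass the signal through CHEK2 and CHEK1 to the cell cycle machinery. HCT116 is widely used as a mismatch repair-deficient line, and many repair genes are transcribed most strongly in cells preparing to copy their DNA.

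Promoter sequence was set beside the expression values for the members that moved with both siRNAs. For NBN, which also moved with both, no promoter sequence was available, so it was not searched. The windows below are the 250 bases before the RefSeq start of FANCC (chr9:95317710-95317959, minus strand), ERCC3 (chr2:127294145-127294394, minus strand) and BRCA1 (chr17:43170328-43170577, minus strand), all GRCh38.p14, and capitals mark the only motif matches in them.
FANCC: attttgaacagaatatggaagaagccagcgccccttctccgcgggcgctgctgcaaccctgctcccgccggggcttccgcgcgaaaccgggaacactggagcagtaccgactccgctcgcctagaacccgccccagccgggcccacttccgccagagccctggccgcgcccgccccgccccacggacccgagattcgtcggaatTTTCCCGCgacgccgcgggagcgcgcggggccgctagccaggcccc
ERCC3: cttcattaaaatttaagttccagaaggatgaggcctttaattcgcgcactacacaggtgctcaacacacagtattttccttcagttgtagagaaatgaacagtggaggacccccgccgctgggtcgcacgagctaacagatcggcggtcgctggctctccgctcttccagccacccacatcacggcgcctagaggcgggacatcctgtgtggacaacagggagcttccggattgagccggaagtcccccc
BRCA1: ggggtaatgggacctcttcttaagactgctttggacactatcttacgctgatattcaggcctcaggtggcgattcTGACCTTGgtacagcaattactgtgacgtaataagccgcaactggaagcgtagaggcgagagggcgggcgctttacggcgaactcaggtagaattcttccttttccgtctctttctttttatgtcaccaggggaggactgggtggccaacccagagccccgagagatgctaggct
The letters searched, on both strands, were CAAGGTCA or CAAGGCCA for LRH-1, and TTTCCCGC or TTTGGCGC for E2F, a family of cell cycle transcription factors. The LRH-1 consensus that the authors cite also allows G as the last base. Sites with that ending, as in the LIG3 window, were not searched, so the LRH-1 counts cover only part of the consensus. The LRH-1 letters searched were found in 2 of the 41 member promoters on the table, or 4.88%, against 2.57% of all 27305 promoters and 2.13% of the promoters of named genes. Those 2 were BRCA1, as the complement TGACCTTG starting at position -175, and BRIP1, as TGGCCTTG at position -64. The BRCA1 window lies before the outermost of its RefSeq starts, and the starts further inside the gene were not searched. The E2F letters were likewise found in 2 of 41, FANCC at position -46 and MSH3 at -107, again 4.88%, against 1.96% of all promoters and 2.85% of those of named genes. ERCC3 held neither motif. A match shows that the letters are present and no more.

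With siLRH-1 #1, 17 of the 43 measured members passed the test, 7 of them higher and 10 lower than with siLUC, a share of 39.5%. The test was limma's moderated test at a threshold of 0.05, p values being adjusted over all probes by Benjamini-Hochberg, and it called 23.5% of all named genes in this comparison, 11.2% higher and 12.3% lower. With siLRH-1 #2 it called 5 members, 4 higher and 1 lower, or 11.6% against 8.39% of named genes (4.41% higher and 3.97% lower). Changes in the same direction with both siRNAs were called for 4 members, BRCA1 lower and NBN, ERCC3 and FANCC higher, or 9.3% against 4.78% of named genes (2.84% higher and 1.93% lower). MSH6 was called with siLRH-1 #2 but not with siLRH-1 #1, 22 members were called in no comparison, and no member was called in opposite directions. When the 2 sets of arrays described below were a block in the model, BARD1 was called lower with siLRH-1 #1 (-0.23, adjusted p = 0.014) and higher with siLRH-1 #2 (0.30, adjusted p = 0.00961). Both comparisons use the same siLUC arrays, so they are not independent of each other.

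The changes were small. The largest was that of MUTYH with siLRH-1 #1, 1.42-fold lower, and none changed as much as by a doubling with either siRNA. The members had a median log2 fold change of -0.04 under siLRH-1 #1 and 0.02 under siLRH-1 #2, beside 0.01 and 0.00 over the named genes. A mean log2 level under 7 was found for 10 of the 43 members but for 3374 of the 7452 named genes, so the members were brighter. Where only probes with a mean log2 level of at least 7 were kept, 19 of 33 members were called with siLRH-1 #1, or 57.6% against 41.8% of named genes. With siLRH-1 #2 7 were called, or 21.2% against 21.3%, and with both siRNAs in the same direction 4, or 12.1% against 11.8%. All 4 siLRH-1 #1 arrays lay above all 4 siLUC arrays for 8 members and below them for 10, or 18.6% and 23.3% beside 13.0% and 13.3% of named genes. All 4 siLRH-1 #2 arrays lay above the siLUC arrays for 8 members and below them for 5, or 18.6% and 11.6% beside 8.71% and 7.9%.

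Single arrays bore on these counts. Without siLUC replicate 1, 11 members were called with siLRH-1 #1 (25.6% against 20.5% of named genes), 3 with siLRH-1 #2 (6.98% against 7.15%), and 1, ERCC3, with both (2.33% against 3.97%). Without siLRH-1 #2 replicate 1 only ERCC3 was called with siLRH-1 #2, or 2.33% against 4.43%. Without siLUC replicate 2 or replicate 4, 3 members were called with siLRH-1 #2, or 6.98% against 4.79% and 7.13%, and without siLUC replicate 2 the calls with both numbered 2, or 4.65% against 2.87%. The arrays were also split into 2 sets that the labels do not name. Of all splits into sets of at least 3, this one had the smallest median absolute difference of probe means between the sets. It was 0.002629, against 0.02455 for the next split and 0.04611 for the median of all splits. The larger set held 7 arrays (3 siLUC, 3 siLRH-1 #1, 1 siLRH-1 #2) and the smaller 5 (1, 1 and 3), so the siRNAs were spread unevenly over them. In each set fewer named genes were called than on all arrays. Within the larger set 12 members were called with siLRH-1 #1 (27.9% against 16.5% of named genes). The other comparisons with siLUC inside a set had a lone array on 1 side. Their counts cannot show whether the calls hold and are not given.

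**Figure D1:**
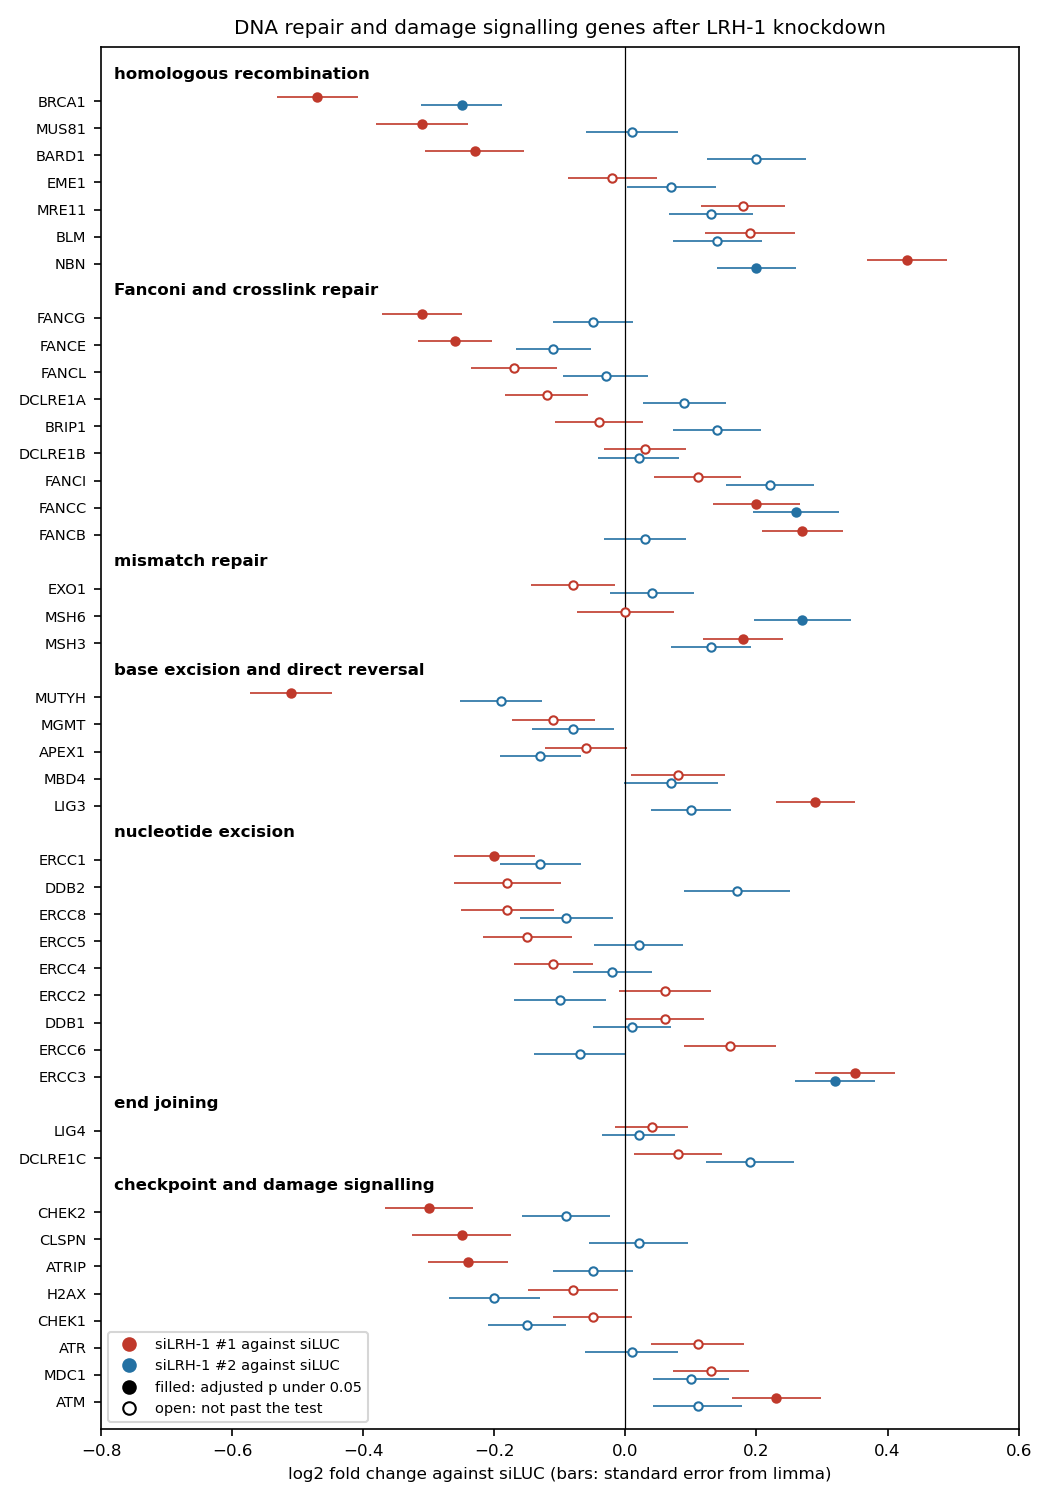
The log2 fold change of each of the 43 measured members against siLUC (x axis) by pathway, siLRH-1 #1 in red and siLRH-1 #2 in blue, with bars for limma's standard error and filled points for an adjusted p under 0.05. Of the points, 17 red and 5 blue ones are filled, and 4 members, BRCA1, NBN, FANCC and ERCC3, have both filled.

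Homologous recombination copies the broken stretch from the sister chromatid. Of its 7 measured members 3 fell (BRCA1, MUS81, BARD1) and 1 rose (NBN) with siLRH-1 #1, and BRCA1 fell and NBN rose with siLRH-1 #2. BRCA1, the ubiquitin ligase that helps to load the recombinase, read 7.87, 7.77, 7.65 and 7.81 on the siLUC arrays, 7.33, 7.39, 7.30 and 7.21 with siLRH-1 #1, and 7.49, 7.57, 7.53 and 7.50 with siLRH-1 #2. The 3 groups did not overlap, with siLUC highest and siLRH-1 #1 lowest. Its level fell by 0.47 on the log2 scale with siLRH-1 #1 (SE 0.062, limma adjusted p = 5.77e-06) and by 0.25 with siLRH-1 #2 (SE 0.062, adjusted p = 0.0137), and the difference of -0.22 between the siRNAs passed the test as well (adjusted p = 0.0211). Leaving out siLUC replicate 1 (adjusted p = 0.0557) or siLRH-1 #2 replicate 1 (adjusted p = 0.0568) ended the second call. The difference between the siRNAs was lost without siLRH-1 #1 replicate 3 (adjusted p = 0.0586), siLRH-1 #1 replicate 4 (0.078) or siLRH-1 #2 replicate 2 (0.0612). A dimmer BRCA1 probe fell by 0.41 with siLRH-1 #1 (adjusted p = 0.00021), and its value with siLRH-1 #2 was -0.12 (adjusted p = 0.395).

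BARD1, the partner that BRCA1 needs for its ligase activity, did not move with BRCA1 in both groups. Its probe read 7.66, 7.43, 7.52 and 7.52 with siLUC, 7.35, 7.50, 7.13 and 7.22 with siLRH-1 #1, and 7.89, 7.71, 7.67 and 7.66 with siLRH-1 #2. The siLRH-1 #1 arrays all lay under the siLRH-1 #2 arrays, while each overlapped or touched siLUC. BARD1 fell by 0.23 with siLRH-1 #1 (adjusted p = 0.0354), its value with siLRH-1 #2 was 0.20 (adjusted p = 0.142), and the siRNAs differed by -0.43 (SE 0.076, adjusted p = 0.00031), the largest such difference of any member. The fall with siLRH-1 #1 did not pass when siLUC replicate 1 (adjusted p = 0.127), siLUC replicate 3 (0.0617), siLUC replicate 4 (0.0644), siLRH-1 #1 replicate 3 (0.15) or siLRH-1 #1 replicate 4 (0.104) was left out. When the 2 sets were a block in the model, BARD1 passed in opposite directions, at -0.23 for siLRH-1 #1 (adjusted p = 0.014) but 0.30 for siLRH-1 #2 (adjusted p = 0.00961).

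NBN, a subunit of the complex that recognises broken ends, moved the other way. Its levels were 8.80, 8.83, 8.93 and 8.84 with siLUC, 9.17, 9.28, 9.32 and 9.38 with siLRH-1 #1, and 9.05, 9.00, 9.12 and 9.04 with siLRH-1 #2. Both knockdown groups lay wholly above siLUC, and siLRH-1 #1 wholly above siLRH-1 #2. NBN rose by 0.43 with siLRH-1 #1 (SE 0.061, adjusted p = 1.28e-05) and by 0.20 with siLRH-1 #2 (adjusted p = 0.0488), a difference of 0.23 between the siRNAs (adjusted p = 0.0124). The call with siLRH-1 #2 held in 3 of the 12 fits that left out 1 array and ended when siLUC replicate 1, 2 or 4, siLRH-1 #1 replicate 2 or 3, or any siLRH-1 #2 array was left out, with adjusted p up to 0.136. It was also lost with the 2 sets as a block (0.20, adjusted p = 0.0802). MRE11, the nuclease of the same complex, had 0.18 (adjusted p = 0.0518) and 0.13 (adjusted p = 0.304), and the first passed when siLRH-1 #1 replicate 2 (adjusted p = 0.035), siLRH-1 #2 replicate 2 (0.0437) or siLRH-1 #2 replicate 4 (0.0491) was left out.

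MUS81, the nuclease subunit that cuts branched DNA, read 7.80, 7.66, 7.68 and 7.85 with siLUC, 7.34, 7.48, 7.36 and 7.57 with siLRH-1 #1, and 7.81, 7.87, 7.66 and 7.69 with siLRH-1 #2. Its siLRH-1 #1 arrays lay under all the others, and the other groups overlapped. It fell by 0.31 with siLRH-1 #1 (SE 0.07, adjusted p = 0.00252), had 0.01 with siLRH-1 #2 (adjusted p = 0.975), and differed by -0.32 between the siRNAs (adjusted p = 0.00264). EME1, which pairs with MUS81, had -0.02 and 0.07, and the helicase BLM 0.19 (adjusted p = 0.0655) and 0.14 (adjusted p = 0.287). For BLM the first value passed when siLUC replicate 4 (adjusted p = 0.0431) or siLRH-1 #1 replicate 1 (0.0432) was left out.

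**Figure D2:**
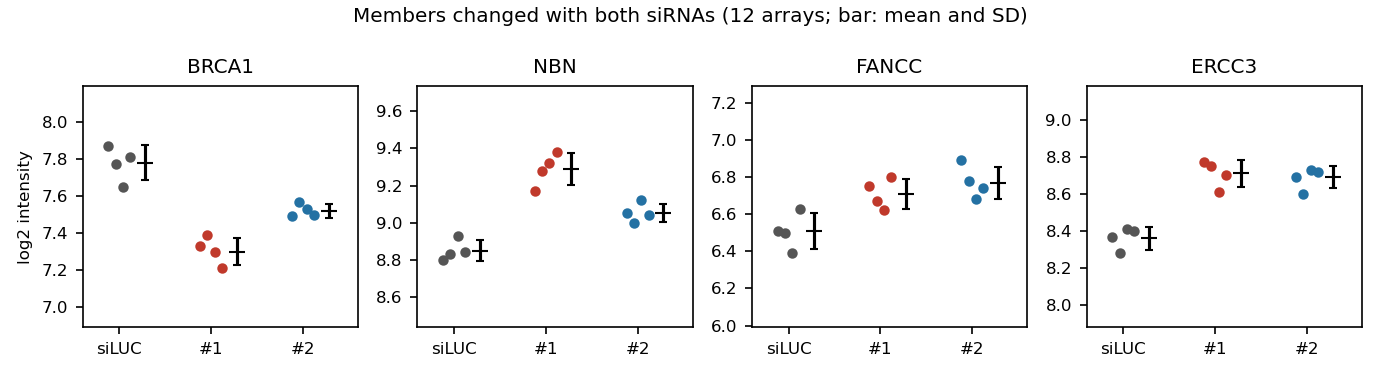
The log2 intensity (y axis) of BRCA1, NBN, FANCC and ERCC3 on each of the 12 arrays by siRNA, with bars for the mean and SD of 4 arrays. The BRCA1 arrays of both siRNAs lie below siLUC, those of NBN and ERCC3 above it, and 1 siLRH-1 #1 array of FANCC, at 6.62, lies just below the highest siLUC array at 6.63.

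The Fanconi core complex places ubiquitin on its partner proteins at crosslinked DNA. Of the 9 measured members of the Fanconi and crosslink group, FANCB and FANCC rose and FANCE and FANCG fell with siLRH-1 #1, all core complex subunits, and FANCC rose with siLRH-1 #2. FANCC read 6.51, 6.50, 6.39 and 6.63 with siLUC, 6.75, 6.67, 6.62 and 6.80 with siLRH-1 #1, and 6.89, 6.78, 6.68 and 6.74 with siLRH-1 #2. The siLRH-1 #2 arrays lay above siLUC, while siLRH-1 #1 overlapped it by 1 array. FANCC rose by 0.20 (adjusted p = 0.0365) and 0.26 (adjusted p = 0.0158), and the siRNAs differed by -0.06 (adjusted p = 0.657). Leaving out siLUC replicate 1 (adjusted p = 0.0678), 2 (0.0679) or 3 (0.135), or siLRH-1 #1 replicate 1 (0.0899) or 4 (0.117), ended the first call, and leaving out siLUC replicate 3 (0.0667) or siLRH-1 #2 replicate 1 (0.0928) the second.

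FANCG gave 9.51, 9.55, 9.47 and 9.57 with siLUC, 9.21, 9.26, 9.15 and 9.25 with siLRH-1 #1, and 9.57, 9.38, 9.41 and 9.54 with siLRH-1 #2. Every siLRH-1 #1 array was lower than every other array. It fell by 0.31 with siLRH-1 #1 (SE 0.061, adjusted p = 0.000774), had -0.05 with siLRH-1 #2 (adjusted p = 0.755), and differed by -0.26 between the siRNAs (adjusted p = 0.0054). FANCE fell by 0.26 with siLRH-1 #1 (adjusted p = 0.0019), while siLRH-1 #2 gave -0.11 (adjusted p = 0.327), a difference of -0.15 that did not pass (adjusted p = 0.0904).

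FANCB read 7.26, 7.30, 7.28 and 7.29 with siLUC, 7.51, 7.55, 7.67 and 7.50 with siLRH-1 #1, and 7.30, 7.19, 7.38 and 7.39 with siLRH-1 #2. All siLRH-1 #1 arrays stood above the rest. It rose by 0.27 with siLRH-1 #1 (adjusted p = 0.00276), had 0.03 with siLRH-1 #2 (adjusted p = 0.872), and differed by 0.24 between the siRNAs (adjusted p = 0.00954), a call lost without siLRH-1 #1 replicate 3 (adjusted p = 0.0562). The other FANCB probe went against this, with -0.10 for siLRH-1 #1 (adjusted p = 0.42) and a difference between the siRNAs of -0.26 (adjusted p = 0.0212), so the direction of FANCB depends on the probe.

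DCLRE1A, a nuclease that digests past a crosslink, had 8.14, 7.97, 8.16 and 8.06 with siLUC, 7.95, 7.99, 7.91 and 8.01 with siLRH-1 #1, and 8.20, 8.06, 8.15 and 8.26 with siLRH-1 #2. It was not called against siLUC (-0.12 and 0.09), but siLRH-1 #1 lay wholly under siLRH-1 #2, by 0.20 (adjusted p = 0.0346). That call was lost without siLRH-1 #1 replicate 1 (adjusted p = 0.0694) or 3 (0.121), or siLRH-1 #2 replicate 1 (0.105), 3 (0.0562) or 4 (0.11). The other 4 members of the group did not pass in the model as reported. FANCI, which is clamped on DNA by the pathway, had 0.22 with siLRH-1 #2 (adjusted p = 0.0508), all 4 arrays above siLUC, and passed when siLUC replicate 3 (adjusted p = 0.0478), siLRH-1 #1 replicate 1 (0.0457), siLRH-1 #1 replicate 3 (0.0379) or siLRH-1 #2 replicate 4 (0.0455) was left out. On all 12 arrays FANCI also passed with an intensity trend (adjusted p = 0.0396), with array weights (0.0438), with 16 added before log2 (0.0296) and with the 2 sets as a block (0.27, adjusted p = 0.016). FANCL, the ubiquitin ligase of the core complex, had -0.17, which passed when siLUC replicate 4 was left out (-0.20, adjusted p = 0.0485), and -0.03, the helicase BRIP1 -0.04 and 0.14, and the telomere nuclease DCLRE1B 0.03 and 0.02. Between the siRNAs BRIP1 differed by -0.17 (adjusted p = 0.0993), and by -0.22 with the 2 sets as a block, where it passed (adjusted p = 0.0395).

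Mismatch repair was represented by 3 members, the mismatch recognition proteins MSH3 and MSH6 and the exonuclease EXO1. MSH3, which acts on larger loops, rose with siLRH-1 #1, and MSH6, which acts on single mispairs, rose with siLRH-1 #2. MSH6 read 10.65, 10.35, 10.63 and 10.44 with siLUC, 10.46, 10.59, 10.52 and 10.52 with siLRH-1 #1, and 10.96, 10.71, 10.69 and 10.78 with siLRH-1 #2. The siLRH-1 #2 arrays lay above all the others, and the siLRH-1 #1 arrays fell inside the range of siLUC. Its value was 0.00 with siLRH-1 #1 (adjusted p = 0.981) and it rose by 0.27 with siLRH-1 #2 (SE 0.074, adjusted p = 0.0307), with a difference of -0.26 between the siRNAs (adjusted p = 0.0181). The rise was lost without siLUC replicate 2 (adjusted p = 0.164), siLUC replicate 4 (0.0887), siLRH-1 #2 replicate 1 (0.174) or siLRH-1 #2 replicate 4 (0.0546), and the difference without siLRH-1 #1 replicate 1 (0.0551) or siLRH-1 #2 replicate 1 (0.107).

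MSH3 read 12.96, 13.03, 13.03 and 12.97 with siLUC, 13.19, 13.23, 13.06 and 13.25 with siLRH-1 #1, and 13.14, 13.15, 13.05 and 13.19 with siLRH-1 #2. Both knockdown groups lay above siLUC on every array. On this probe MSH3 rose by 0.18 with siLRH-1 #1 (adjusted p = 0.037), while siLRH-1 #2 gave 0.13 (adjusted p = 0.243). Its dimmer probe, with a mean of 6.43, had 0.09 with siLRH-1 #1 (adjusted p = 0.375) and was not called with either siRNA. With the mean of the probes the value with siLRH-1 #1 was 0.14 and did not pass (adjusted p = 0.0921). The call on the brightest probe held in 5 of the 12 fits that left out 1 array and ended when any 1 siLUC array, or siLRH-1 #1 replicate 1, 2 or 4, was left out (adjusted p up to 0.107). EXO1 had -0.08 and 0.04 on its brightest probe, and a dimmer one fell by 0.21 with siLRH-1 #1 (adjusted p = 0.0244).

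In base excision repair a glycosylase removes a damaged base, APEX1 nicks the strand and a ligase such as LIG3 seals it. Of 5 measured members of this group, which also holds MGMT, the protein that lifts alkyl groups from guanine directly, MUTYH fell and LIG3 rose with siLRH-1 #1, and none was called with siLRH-1 #2 (limma; 2 at an unadjusted p under 0.05). MUTYH, the glycosylase that removes adenine paired with oxidised guanine, read 9.11, 9.13, 9.06 and 9.16 with siLUC, 8.72, 8.57, 8.62 and 8.52 with siLRH-1 #1, and 9.03, 8.81, 8.90 and 8.96 with siLRH-1 #2. The 3 groups did not overlap, in the order siLUC, siLRH-1 #2, siLRH-1 #1. MUTYH fell by 0.51 with siLRH-1 #1 (SE 0.063, adjusted p = 2.43e-06), from a mean of 9.12 ± 0.041 to 8.61 ± 0.083 (SD, n = 4). Its value with siLRH-1 #2 was -0.19 (adjusted p = 0.0785), and the siRNAs differed by -0.32 (adjusted p = 0.00114). The other 2 MUTYH probes also fell with siLRH-1 #1, by 0.29 (adjusted p = 0.00745) and 0.39 (adjusted p = 8.09e-05). Where only probes with a mean log2 level of at least 7 were tested, the value with siLRH-1 #2 passed as well (adjusted p = 0.0282).

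LIG3 gave 7.36, 7.40, 7.37 and 7.34 with siLUC, 7.70, 7.61, 7.59 and 7.71 with siLRH-1 #1, and 7.37, 7.43, 7.47 and 7.59 with siLRH-1 #2. Its siLRH-1 #1 arrays lay above siLUC, and the highest siLRH-1 #2 array reached the lowest of them. It rose by 0.29 with siLRH-1 #1 (SE 0.061, adjusted p = 0.00162), while siLRH-1 #2 gave 0.10 (adjusted p = 0.452), while the dimmer LIG3 probe had 0.03 (adjusted p = 0.827) and -0.02. The difference of 0.19 between the siRNAs (adjusted p = 0.0455) held in 3 of the 12 fits that left out 1 array, those without siLUC replicate 4, siLRH-1 #1 replicate 2 or siLRH-1 #2 replicate 4, and reached an adjusted p of 0.182 in the others. It was lost as well with the 2 sets as a block (adjusted p = 0.0512). APEX1 had -0.06 and -0.13, the glycosylase MBD4 0.08 and 0.07, and MGMT -0.11 and -0.08.

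Nucleotide excision repair opens the helix around a bulky lesion and cuts the strand on both sides. Of its 9 members, all of them measured, ERCC3 rose and ERCC1 fell with siLRH-1 #1, and ERCC3 rose with siLRH-1 #2. ERCC3, a helicase subunit of the transcription factor TFIIH, read 8.37, 8.28, 8.41 and 8.40 with siLUC, 8.77, 8.75, 8.61 and 8.70 with siLRH-1 #1, and 8.69, 8.60, 8.73 and 8.72 with siLRH-1 #2. All 8 knockdown arrays were above all siLUC arrays, and the knockdown groups overlapped each other. ERCC3 rose by 0.35 with siLRH-1 #1 (SE 0.061, adjusted p = 0.000185), a 1.27-fold change, and by 0.32 with siLRH-1 #2 (SE 0.061, adjusted p = 0.00158), a 1.25-fold change. The siRNAs differed by 0.03 (SE 0.061, adjusted p = 0.873). Both calls held in all 12 fits that left out 1 array, which was true of no other member called with both siRNAs. Within the smaller set of arrays the values were 0.34 (adjusted p = 0.228) and 0.41 (adjusted p = 0.0726), and within the larger set the value with siLRH-1 #2 was 0.30 (adjusted p = 0.153). ERCC2, the other helicase of TFIIH, had 0.06 (adjusted p = 0.642) and -0.10 (adjusted p = 0.494).

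DDB2, which finds ultraviolet lesions together with DDB1, read 7.23, 6.90, 7.40 and 7.07 with siLUC, 6.92, 6.96, 6.90 and 7.09 with siLRH-1 #1, and 7.34, 7.26, 7.24 and 7.42 with siLRH-1 #2. The siLUC arrays spread over the range of both knockdown groups, which did not overlap each other. Against siLUC its values were -0.18 (adjusted p = 0.133) and 0.17 (adjusted p = 0.292), and the siRNAs differed by -0.35 (SE 0.081, adjusted p = 0.00426), a difference kept in all 12 fits that left out 1 array. Without siLUC replicate 2, the siLUC array at 6.90, the value with siLRH-1 #1 was -0.27 and passed (adjusted p = 0.0197). DDB1, its partner, had 0.06 and 0.01.

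ERCC6, which acts where a lesion blocks transcription, read 5.92, 6.19, 5.92 and 6.00 with siLUC, 6.23, 6.03, 6.14 and 6.28 with siLRH-1 #1, and 5.88, 6.02, 5.95 and 5.89 with siLRH-1 #2. The siLRH-1 #1 arrays were above the siLRH-1 #2 arrays by a narrow margin, and all were dim. Its values against siLUC were 0.16 (adjusted p = 0.122) and -0.07 (adjusted p = 0.671), and the siRNAs differed by 0.24 (adjusted p = 0.0256). That call was lost without siLRH-1 #1 replicate 1 (adjusted p = 0.0726), 3 (0.0512) or 4 (0.0923), or siLRH-1 #2 replicate 1 (0.0899) or 4 (0.0656), and without siLUC replicate 2 the value with siLRH-1 #1 was 0.23 and passed (0.0296).

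ERCC1, which forms a nuclease with ERCC4, fell by 0.20 with siLRH-1 #1 (adjusted p = 0.0285), while siLRH-1 #2 gave -0.13 (adjusted p = 0.275). The fall was seen on its brightest probe alone, since its other 3 probes had values of 0.05, -0.04 and -0.14, none past the test, and it did not pass when siLUC replicate 1, 2 or 4 or siLRH-1 #1 replicate 2 or 3 was left out (adjusted p up to 0.11). ERCC4 had -0.11 and -0.02. The nuclease ERCC5 had -0.15 (adjusted p = 0.149) and 0.02, and passed at -0.21 with siLRH-1 #1 without replicate 2 of that group (adjusted p = 0.0377). ERCC8, the partner of ERCC6, had -0.18 (adjusted p = 0.0967) and -0.09, and of its 2 dimmer probes 1 fell by 0.17 with siLRH-1 #1 (adjusted p = 0.029).

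End joining ligates broken ends without a template, and its 2 measured members were not called in any comparison (limma; DCLRE1C alone had an unadjusted p under 0.05, with siLRH-1 #2). DCLRE1C, the nuclease that opens hairpin ends, read 6.53, 6.36, 6.40 and 6.58 with siLUC, 6.58, 6.57, 6.49 and 6.53 with siLRH-1 #1, and 6.70, 6.65, 6.51 and 6.77 with siLRH-1 #2. All 3 groups overlapped. Its values were 0.08 (adjusted p = 0.516) and 0.19 (adjusted p = 0.1), the second passing without siLRH-1 #2 replicate 3 (0.24, adjusted p = 0.0398) and when the 2 sets were a block in the model (0.24, adjusted p = 0.0426). LIG4, the ligase of the pathway, had 0.04 (SE 0.056) and 0.02 (SE 0.056). Both were dim, with mean levels of 6.56 and 6.54.

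All 8 checkpoint and damage signalling members were measured. With siLRH-1 #1, CHEK2, CLSPN and ATRIP fell and ATM rose, and with siLRH-1 #2 none was called (limma; 2 at an unadjusted p under 0.05). CHEK2, the kinase downstream of ATM, read 8.22, 8.39, 8.43 and 8.37 with siLUC, 7.97, 8.22, 7.99 and 8.05 with siLRH-1 #1, and 8.32, 8.24, 8.28 and 8.20 with siLRH-1 #2. The siLRH-1 #1 arrays were not above any siLUC array, with 1 level with the lowest of them at 2 decimals. CHEK2 fell by 0.30 with siLRH-1 #1 (SE 0.067, adjusted p = 0.0023), while siLRH-1 #2 gave -0.09 (adjusted p = 0.529), and its dimmer probe fell by 0.34 (adjusted p = 0.00077). The difference of -0.21 between the siRNAs (adjusted p = 0.0432) was lost without siLRH-1 #1 replicate 1, 3 or 4 or siLRH-1 #2 replicate 1, 2 or 3 (adjusted p up to 0.147).

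ATRIP, which brings ATR to single-stranded DNA, read 8.32, 8.33, 8.36 and 8.31 with siLUC, 8.12, 8.12, 8.00 and 8.13 with siLRH-1 #1, and 8.28, 8.21, 8.22 and 8.42 with siLRH-1 #2. Each siLRH-1 #1 array lay under all the others. It fell by 0.24 with siLRH-1 #1 (adjusted p = 0.00786), had -0.05 with siLRH-1 #2 (adjusted p = 0.772), and its dimmer probe fell by 0.26 (adjusted p = 0.00619). The difference of -0.19 between the siRNAs (adjusted p = 0.0429) was kept in 4 of the 12 fits that left out 1 array, those without siLUC replicate 3 or 4 or siLRH-1 #2 replicate 2 or 3, and reached an adjusted p of 0.172 in the others. ATR itself had 0.11 and 0.01, its dim probe averaging 5.99.

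CLSPN, the adaptor that lets ATR activate CHEK1, read 6.29, 6.09, 6.26 and 6.16 with siLUC, 5.96, 5.84, 5.89 and 6.10 with siLRH-1 #1, and 6.25, 6.37, 6.25 and 6.00 with siLRH-1 #2. Its highest siLRH-1 #1 array lay within the range of both other groups. It fell by 0.25 with siLRH-1 #1 (SE 0.076, adjusted p = 0.0211), had 0.02 with siLRH-1 #2 (adjusted p = 0.949), and differed by -0.27 between the siRNAs (adjusted p = 0.0181). The fall did not pass without siLUC replicate 1 (adjusted p = 0.0715) or 3 (0.0625), or without siLRH-1 #1 replicate 2 (0.0742) or 3 (0.0616), and the difference without siLRH-1 #1 replicate 2 (0.0615) or 3 (0.0673) or siLRH-1 #2 replicate 1 (0.0596) or 2 (0.0786). CHEK1 had -0.05 (adjusted p = 0.631) and -0.15 (adjusted p = 0.18).

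ATM rose by 0.23 with siLRH-1 #1 (adjusted p = 0.0191), while siLRH-1 #2 gave 0.11 (adjusted p = 0.442). It did not pass when siLUC replicate 1, the lowest siLUC array for this gene, was left out (0.18, adjusted p = 0.0909), or when siLRH-1 #1 replicate 4 was (0.18, adjusted p = 0.0905), and another ATM probe of nearly the same brightness had 0.06 (adjusted p = 0.658). H2AX, the histone variant phosphorylated around breaks, had -0.08 (adjusted p = 0.51) and -0.20 (adjusted p = 0.0874), the second passing with the 2 sets as a block (-0.25, adjusted p = 0.031). MDC1, which binds that mark, had 0.13 (adjusted p = 0.125) and 0.10 (adjusted p = 0.372).

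The siRNAs were also compared with each other directly. Of the 43 members 15 differed, 4 higher and 11 lower with siLRH-1 #1 than with siLRH-1 #2, or 34.9% against 18.1% of named genes (8.17% higher and 9.89% lower). Where only probes with a mean log2 level of at least 7 were kept, 14 of 33 differed, or 42.4% against 35.7%. BARD1, DDB2, MUS81 and MUTYH differed by 0.32 or more on the log2 scale, each lower with siLRH-1 #1. Without siLRH-1 #1 replicate 3 the count was 7 (16.3% against 11.6% of named genes), and without siLRH-1 #2 replicate 1 it was 8 (18.6% against 11.6%). It was 10 without siLRH-1 #1 replicate 4 (23.3% against 16.1%). It was 9 without siLRH-1 #1 replicate 1 (20.9%, also above the share of named genes). Fewer named genes were called in each of these fits than on all arrays. The larger set of arrays holds 1 siLRH-1 #2 array and the smaller set 1 siLRH-1 #1 array, each assumed to vary like the rest. In neither set was the members' share of calls above that of the named genes. With a lone array on 1 side and few calls, these shares cannot show whether the members differ from the named genes.

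**Figure D3:**
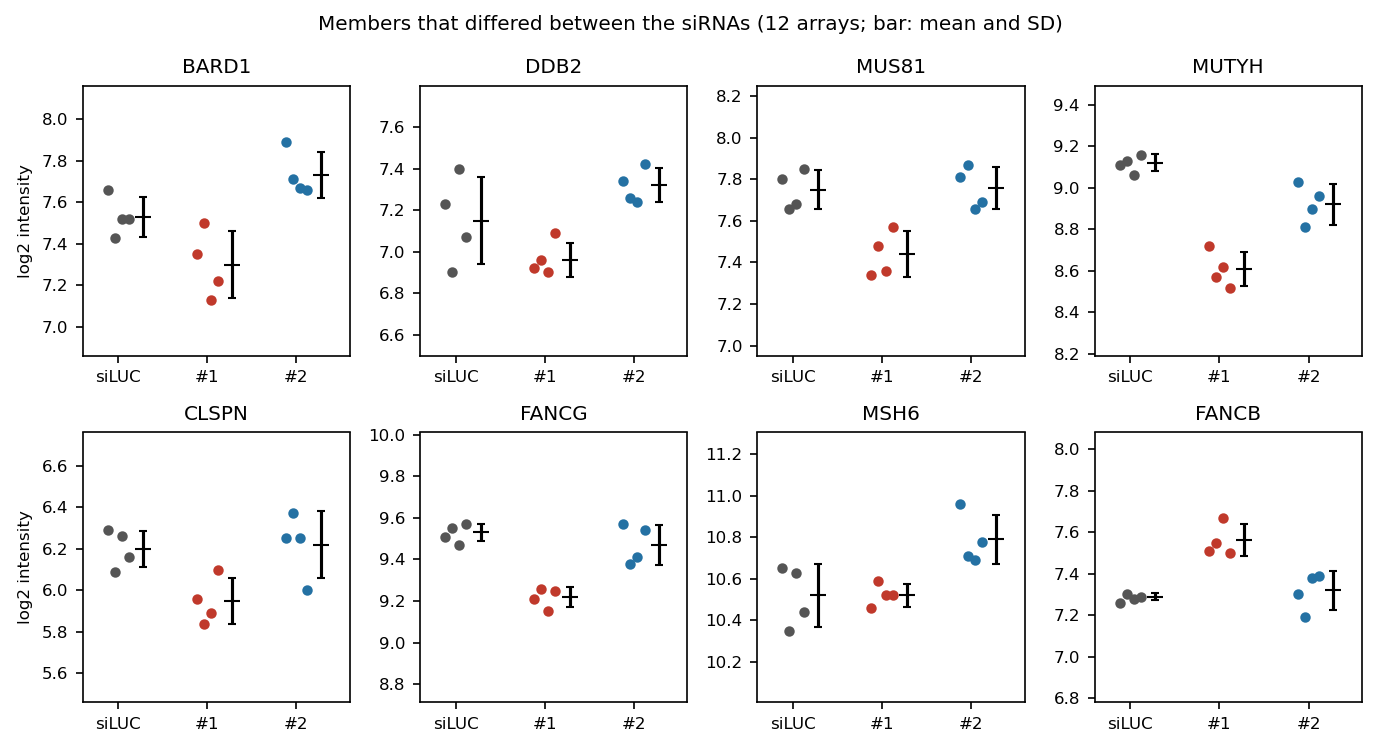
The log2 intensity (y axis) of 8 of the 15 members that differed between the siRNAs, on each of the 12 arrays by siRNA, with bars for the mean and SD of 4 arrays. The siLRH-1 #1 arrays are the lowest group for BARD1, MUS81, MUTYH, CLSPN and FANCG, the highest for FANCB, level with siLUC for MSH6, and for DDB2 they lie under siLRH-1 #2 with siLUC spread across both.

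More than 1 probe was measured for 16 members, with 22 dimmer probes in all, 13 of them with a mean under 7. Of the 17 members called with siLRH-1 #1, 10 had another probe, and for 5 of those (BRCA1, NBN, MUTYH, ATRIP and CHEK2) another probe was called in the same direction, in a comparison that called 17.2% of all probes. No other probe was called in the opposite direction. ERCC8 and EXO1 were called on a dimmer probe alone. With siLRH-1 #2, 2 of the 5 called members, BRCA1 and NBN, had another probe, and it did not pass for either, in a comparison that called 5.71% of all probes. ERCC3, FANCC, BARD1, MUS81 and MSH6 had 1 probe each.

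**Figure D4:**
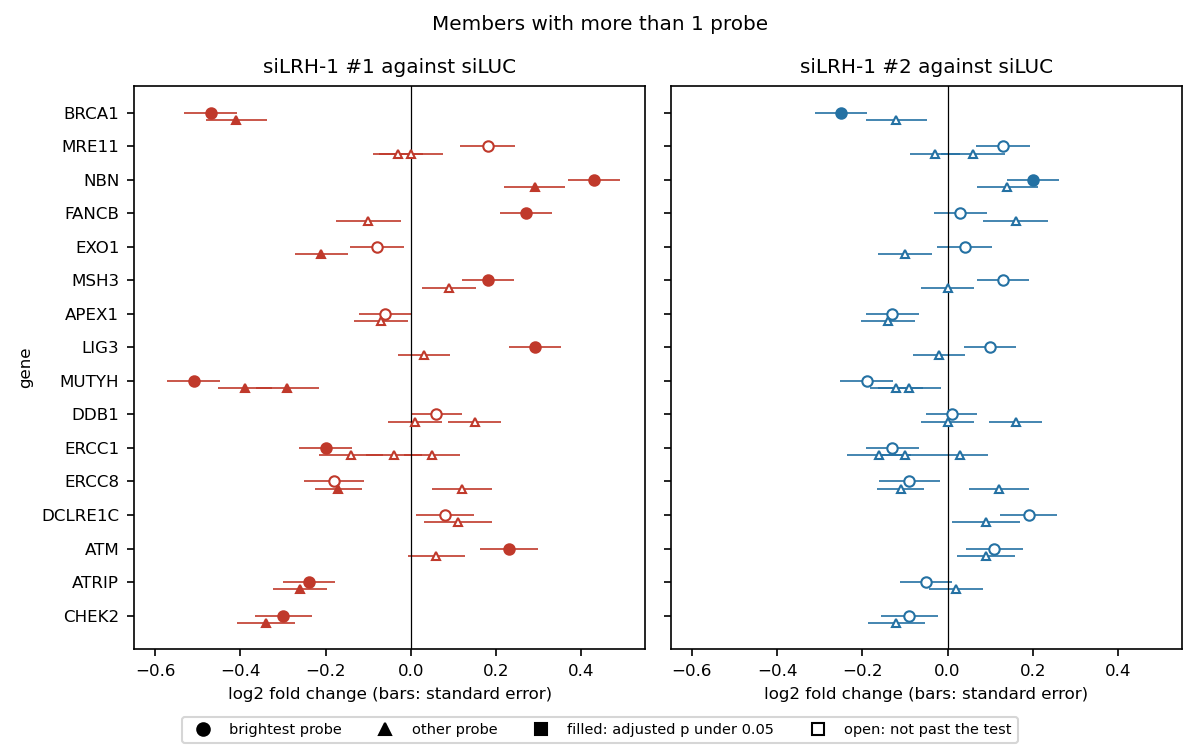
The log2 fold change against siLUC (x axis) of every probe of the 16 members with more than 1, siLRH-1 #1 at left and siLRH-1 #2 at right, with circles for the brightest probe, triangles for the others, bars for the standard error, and filled symbols for an adjusted p under 0.05. With siLRH-1 #1 the filled triangles of BRCA1, NBN, MUTYH, ATRIP and CHEK2 lie on the same side of 0 as the filled circle, and with siLRH-1 #2 no triangle is filled.

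Genes of the replication machinery, which are transcribed with many repair genes, were read in the same fit. Of 36 listed, 16 had a named probe, and the rest were not analysed here. With siLRH-1 #1 1 rose and 8 fell, with a median log2 fold change of -0.16, or 56.2% called against 23.5% of named genes. All 16 had a mean log2 level of at least 7, and where only such probes were tested 41.8% of named genes were called. The share of the replication genes in that fit was not counted. With siLRH-1 #2 1 rose and none fell, with a median of 0.05, or 6.25% against 8.39%. The gene called with both siRNAs was MCM3, a subunit of the replicative helicase, which rose by 0.25 (adjusted p = 0.00245) and 0.19 (adjusted p = 0.0402). Against each other the siRNAs differed for 7, all lower with siLRH-1 #1, or 43.8% against 18.1%. Whether the level of these genes has a part in the repair gene values was not tested, and in bulk RNA fewer cells in a state and less RNA per cell cannot be told apart. Of 55 further repair genes listed, 2 had a named probe, and the rest were not analysed here. The single-strand binding protein RPA1 had 0.12 (limma adjusted p = 0.187) and 0.05. The nuclease scaffold SLX4 rose by 0.25 with siLRH-1 #1 (adjusted p = 0.0222), had -0.04 with siLRH-1 #2, and differed by 0.29 between them (adjusted p = 0.0122).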

How the data were processed

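Illumina HumanHT-12 v4 arrays measured total RNA of 12 samples, 4 per siRNA. The authors read the images with GenomeStudio, dropped each probe whose detection p exceeded 0.05 throughout, and deposited values that Partek had log2-transformed and quantile-normalized. The deposited log2 values of 16381 probes were used without change. Quantile normalization hides a shift common to most transcripts. The 24 columns of the non-normalized table match no label and were not used, so background correction and detection filters could not be varied.

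The platform table gave 1 symbol to 9910 probes, several to 4 and none to 6467, and RefSeq held the gene ID of 9904. A 3-group model was fitted to all probes with limma 3.58.1 in R 4.3.3 (9 residual and 14.6 prior degrees of freedom), with Benjamini-Hochberg adjustment over all probes. The variance model, arrays, blocks, normalization, filter, probe choice and threshold were varied. The procedure was tested on simulated data. Python 3.11.15 with matplotlib 3.10.9 drew the figures.

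The members, gene lists and settings were chosen with earlier results of these data known. Every array is given for members called with both siRNAs, members differing between siRNAs, and per pathway the member with the largest mean change. The others are given by fold change.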

Additional observations from a re-analysis of the deposited data

Results flagged for a closer look

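In 6 of 129 groups of 4 arrays, 1 array stood apart from the other 3 by Dixon's criterion, which chance meets in about 1 group in 20. FANCL was low in siLRH-1 #1 replicate 4, at 7.58 where the others lay between 7.77 and 7.78, and high in siLRH-1 #2 replicate 1, at 7.95 against 7.82 to 7.83. MGMT was low in siLRH-1 #1 replicate 1 (8.17 against 8.36 to 8.40) and ATM in siLUC replicate 1 (7.09 against 7.29 to 7.33). ATRIP was low in siLRH-1 #1 replicate 3 (8.00 against 8.12 to 8.13) and MDC1 in siLUC replicate 3 (9.66 against 9.76).

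The effect of the siRNAs differed, in the direct limma contrast of siLRH-1 #1 with siLRH-1 #2, for 15 members. The lower ones with siLRH-1 #1 were BARD1 (-0.43), DDB2 (-0.35), MUS81 (-0.32), MUTYH (-0.32), CLSPN (-0.27), FANCG (-0.26), MSH6 (-0.26), BRCA1 (-0.22), CHEK2 (-0.21), DCLRE1A (-0.20) and ATRIP (-0.19). The higher ones were FANCB (0.24), ERCC6 (0.24), NBN (0.23) and LIG3 (0.19). BRCA1 and NBN kept 1 direction with both siRNAs and differed in size.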

How the results depend on the processing

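Of 129 fold changes and differences of the 43 members, 37 of them called, 3072 values under the alternatives kept their direction and side of the threshold, 209 lost a call, 42 gained one and 1 reversed. The reversal was FANCB between the siRNAs, 0.24 on its brightest probe and -0.01 as the mean of its probes (adjusted p = 0.954). With siLRH-1 #1 the 17 calls (39.5% against 23.5% of named genes) became 11 at an adjusted p under 0.01 (25.6% against 14.9%). They became 11 to 18 when single arrays were left out, the lowest at 25.6% against 20.5%. With siLRH-1 #2 the 5 calls (11.6% against 8.39%) became 2 with each probe's own variance (4.65% against 3.49%). They became 8 when the 2 sets of arrays were a block (18.6% against 12.8%) and 3 with the mean of a gene's probes (6.98% against 7.68%). At an adjusted p under 0.01 there was 1 (2.33% against 4.31%). Without siLUC replicate 2 and siLRH-1 #2 replicate 1 together there was also 1 (2.33% against 2.13%). Without single arrays there were 1 to 6, the lowest at 2.33% against 4.43%. The 4 calls with both siRNAs became 2 with each probe's own variance, 0 within either set (4 in each at an unadjusted p under 0.05 with both), 2 with the mean of a gene's probes, 1 at an adjusted p under 0.01, 1 without the 2 arrays together, and 1 to 3 without single arrays. The 15 differences between the siRNAs (34.9% against 18.1%) became 6 at an adjusted p under 0.01 (14.0% against 10.8%). They became 8 without the 2 arrays together (18.6% against 11.5%) and 7 to 15 without single arrays, the lowest at 16.3% against 11.6%. Small sets have fewer arrays. Within them, every comparison but siLRH-1 #1 against siLUC in the larger set had a lone array on 1 side, assumed to vary like the other groups. Their counts cannot show whether a call holds and are not given here. The analysis within the smaller set was added after seeing the data. Arrays that share a replicate number did not deviate together (r between -0.041 and 0.043), so these values showed no pairing by number. Whether the numbers mark shared experiments was not tested. With the replicate block the counts were 17, 4, 3 and 12. Those were 39.5%, 9.3%, 6.98% and 27.9% of members, against 22.8%, 8.02%, 4.46% and 17.5% of named genes. In that fit NBN with siLRH-1 #2 (limma adjusted p = 0.0537) and the differences of ATRIP (0.0548), CHEK2 (0.0511) and LIG3 (0.0607) were lost. An intensity trend, array weights, cyclic loess, 16 added before log2 and the 8 arrays of a comparison left every count within 1.5 times. Of the 43 probes, 10 have a mean under 7, near the median probe at 6.48, where a change is read against background that could not be measured here. The cause of these differences between settings was not tested.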

Other observations

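Among markers of other cell types, the fibroblast genes COL1A1, COL1A2 and DCN had 0 calls with either siRNA (limma, and 0 at an unadjusted p under 0.05). Of 4 leukocyte genes measured, CD68, a lysosomal protein, fell by 0.26 with siLRH-1 #1 (adjusted p = 0.00276), and MS4A1, CD14 and LYZ had mean levels of 6.08, 6.12 and 6.11, under the median probe. Of 7 epithelial genes, EPCAM (0.22, adjusted p = 0.0108) and the adhesion protein CDH1 (0.31, adjusted p = 0.00126) rose and the keratins KRT8 (-0.23, adjusted p = 0.00617) and KRT18 (-0.25, adjusted p = 0.00399) fell with siLRH-1 #1, and 0 were called with siLRH-1 #2 (limma, 3 at an unadjusted p under 0.05). Their part in the repair gene values was not tested.

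Among the replication genes with siLRH-1 #1, the falls were those of CDC45 (-0.56), MCM10 (-0.47), MCM4 (-0.45), MCM7 (-0.34), MCM6 (-0.32), GINS2 (-0.23), GINS3 (-0.21) and FEN1 (-0.21). They are subunits of the helicase, the replication factor MCM10 and the flap nuclease FEN1. The helicase loading factors CDC6 (0.07, limma adjusted p = 0.464) and CDT1 (-0.08, adjusted p = 0.429) were not called. CDC45, the largest, had 0.09 with siLRH-1 #2 (adjusted p = 0.648) and differed by -0.65 between the siRNAs (adjusted p = 9.37e-06). These names were chosen after their values were seen.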
